A study of Mus musculus with 20 samples.

Results

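The genes described here are 37 mouse genes whose products move new proteins into the endoplasmic reticulum (ER), fold them there or dispose of them, together with the sensors that adjust this capacity. They were chosen by name, by their known role and with earlier results of these data known, from a table of gene expression in fetal liver that lists 45802 gene entries, and all 37 were found in it. For a test, a gene needed 4 or more libraries with a linear value (2 raised to the deposited log2 value) of 1 or above. Of the 37 genes, 36 were among the 11807 that passed, and Derl3, which did not pass, is given by its values alone. By role they were 10 lumenal chaperones and co-chaperones, 8 lectin chaperones and disulfide enzymes, 7 genes of ER-associated degradation, 9 genes of the translocon and its partners, and 3 sensors and transcription factors.

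The study sequenced RNA from the livers of 20 mouse fetuses of the C57BL/6 strain at stage E17.5, whose dams had all been fasted for 24 h. There were 5 groups of 4 fetuses, each with 2 females and 2 males. In HetDam_HetFetus both the dam and the fetus carried the genotype label Ppar-alpha Heterozygote. In KODam_HetFetus the dam was labelled Ppar-alpha Knockout and the fetus Ppar-alpha Heterozygote, and in KODam_KOFetus both were labelled Ppar-alpha Knockout. In FloxDam_FloxFetus the dam and the fetus were both Cpt2f/f. In Cpt2LKODam_FloxFetus the dam was Cpt2f/f; Albumin-Cre and the fetus was Cpt2f/f. The albumin promoter drives Cre in hepatocytes, so the deletion in these dams is meant for the liver. The label of their fetuses, Cpt2f/f, names no Cre. The titles of both Cpt2 groups speak of wild type where the genotype labels give Cpt2f/f, and the genotype labels were followed. No group came from fed dams, so the fast itself was not compared. PPAR-alpha, the product of Ppara, is the receptor that raises fat burning and ketone production in a fast, and CPT2 is an enzyme of the inner mitochondrial membrane without which long-chain fats are not burned.

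Secreted and membrane proteins enter the ER through the SEC61 channel. There the chaperone BiP (Hspa5), the lectins calnexin and calreticulin and the protein disulfide isomerases fold them. Proteins that fail to fold are carried back to the cytosol through membrane complexes built on HRD1 (Syvn1), SEL1L and the derlins, and are degraded by the proteasome. When unfolded proteins accumulate, the sensors IRE1, ATF6 and PERK start the unfolded protein response. IRE1 splices Xbp1 mRNA, ATF6 is cut to release a transcription factor, and PERK slows translation. The liver secretes most plasma proteins, and its hepatocytes hold a large ER for this. Values per gene, as used here, show neither the splicing of Xbp1 nor the cleavage of ATF6.

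The deposited values are log2 values whose linear quantity is not named, so levels were compared between libraries and never between genes, and depth is unknown. The tissue label was met: Alb lay between 14.52 and 16.15 and Afp between 12.74 and 14.04 on this scale, and all 12 hepatocyte markers reached the minimum in every library. In bulk tissue, fewer cells of a type and less RNA per cell cannot be told apart. In KODam_KOFetus the targeted Ppara lay at 1.87 to 2.48, below the 2.86 to 3.47 of HetDam_HetFetus, so the knockout fetuses still had a value for the gene, and KODam_HetFetus lay at 1.81 to 3.22. Between KODam_HetFetus and HetDam_HetFetus, whose fetuses share the heterozygous label, Ppara differed by -0.56 ± 0.26 (SE, limma adjusted p = 0.0971), with overlapping libraries. Fetal Cpt2 differed by -0.10 ± 0.16 (SE, limma adjusted p = 0.849) under the maternal deletion, which the labels place in the dam. By their marker sums, 4 libraries carried a neighbouring tissue: HetDam_HetFetus replicate 1 (stomach and intestine), HetDam_HetFetus replicate 4 and KODam_KOFetus replicate 2 (skeletal muscle), and Cpt2LKODam_FloxFetus replicate 2 (endocrine pancreas). Replicates 1 and 2 of KODam_HetFetus, 1 and 2 of KODam_KOFetus and 3 and 4 of FloxDam_FloxFetus share a litter code, which leaves 3 litters in each of these groups. Counts are also given without the 4 carrying libraries and without the KODam_HetFetus pair. Fetuses that may be littermates entered the fit as independent, so the p-values measure the spread between these fetuses.

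The ER stress response element (ERSE), which ATF6 and XBP1 are known to bind with NF-Y, was first described in promoters of ER chaperone genes, so its presence here is no new evidence. Its letters are CCAAT and CCACG with 9 free bases between them, and those of the shorter ERSE-II are ATTGG and CCACG with 1 free base between them. Both were searched on both strands in RefSeq promoters of build GRCm38.p6, from 250 bases before to 50 after the gene start that this table uses, and 30 of the 37 genes had an entry. ERSE was found in 10 of these 30 promoters (33.3%), against 37 of 27025 promoters of all genes (0.137%). ERSE-II was found in 2 (6.67%), against 12 of all genes (0.0444%). The XBP1 element TGACGTGG was found in 0 of 30, against 0.714% of all genes, and the 5 letters CCACG, which both elements and the reverse strand of TGACGTGG contain, in 24 of 30 (80%), against 35.5%. The matches are printed because they set which genes carry the element in the comparisons that follow. Each is given 5′ to 3′ on the strand that reads as the motif, named beside its position, with the fixed bases of the motif in capitals.
Hspa5 (ERSE, chr2:34772025-34772043, + strand): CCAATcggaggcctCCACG
Hsp90b1 (ERSE, chr10:86705638-86705656, - strand): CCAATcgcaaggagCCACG
Hsp90b1 (ERSE, chr10:86705533-86705551, + strand): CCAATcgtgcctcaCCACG
Dnajb11 (ERSE-II, chr16:22857852-22857862, + strand): ATTGGcCCACG
Dnajc3 (ERSE, chr14:118937827-118937845, + strand): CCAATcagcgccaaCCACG
Creld2 (ERSE, chr15:88819520-88819538, - strand): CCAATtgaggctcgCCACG
Calr (ERSE, chr8:84847075-84847093, + strand): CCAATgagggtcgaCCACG
Canx (ERSE, chr11:50325800-50325818, - strand): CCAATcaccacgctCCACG
Pdia6 (ERSE, chr12:17266491-17266509, + strand): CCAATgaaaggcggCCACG
Ero1lb (ERSE, chr13:12565682-12565700, - strand): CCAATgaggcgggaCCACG
Herpud1 (ERSE-II, chr8:94386377-94386387, + strand): ATTGGgCCACG
Syvn1 (ERSE, chr19:6046532-6046550, + strand): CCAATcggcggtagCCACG
Derl3 (ERSE, chr10:75893242-75893260, - strand): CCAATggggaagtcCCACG

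**Figure D1:**
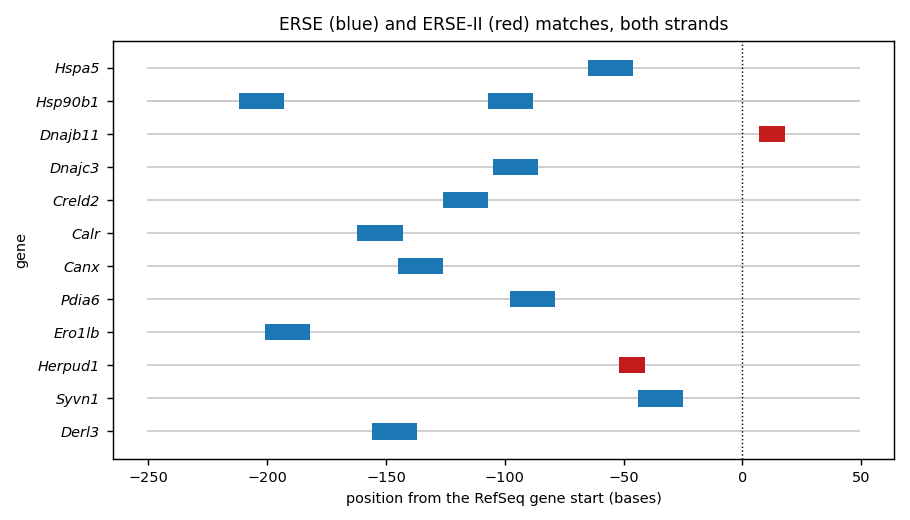
Positions of the ERSE matches (blue) and ERSE-II matches (red) in the RefSeq promoters of the 12 genes that have one; the x axis is the distance from the gene start in bases, and grey lines show the window searched, from 250 bases before to 50 after the start. All matches except that of Dnajb11, which lies at 7 to 17 bases, are upstream of the start.

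The maternal Ppara knockout was assessed by setting KODam_HetFetus against HetDam_HetFetus, whose fetuses have the same Ppara genotype and differ in that of the dam. Xbp1 and Atf6, the transcription factors of the unfolded protein response among these genes, moved in opposite directions. Xbp1 fell by 2.03-fold and Atf6 rose by 1.88-fold. Of the folding enzymes, Pdia4, Ero1l and Sdf2l1 fell and Dnajb11 rose. In ER-associated degradation Derl2 and Edem1 fell and Herpud1 rose, and in the translocon Ssr1 rose. In all, 4 genes rose and 6 fell among 36, against 39.0% of 11800 genes tested in this comparison (26.4% higher and 12.6% lower). The share of these ER genes that was called was smaller than that of all genes, and the split between directions was the other way. These are counts of few genes that vary together. With trimmed-mean scaling 2 ER genes rose and 8 fell, and rises made up 49.9% of all calls in place of 67.8%. Under that scaling all genes had no majority of rises. Without that scaling the median difference of the ER genes was -0.003, with 0.14 for all genes tested, and 18 of 36 lay below 0, against 39.6% of all genes. The libraries of the groups did not overlap for 4 genes that were higher and 6 that were lower, against 24.3% and 11.7% of all genes.

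**Figure D2:**
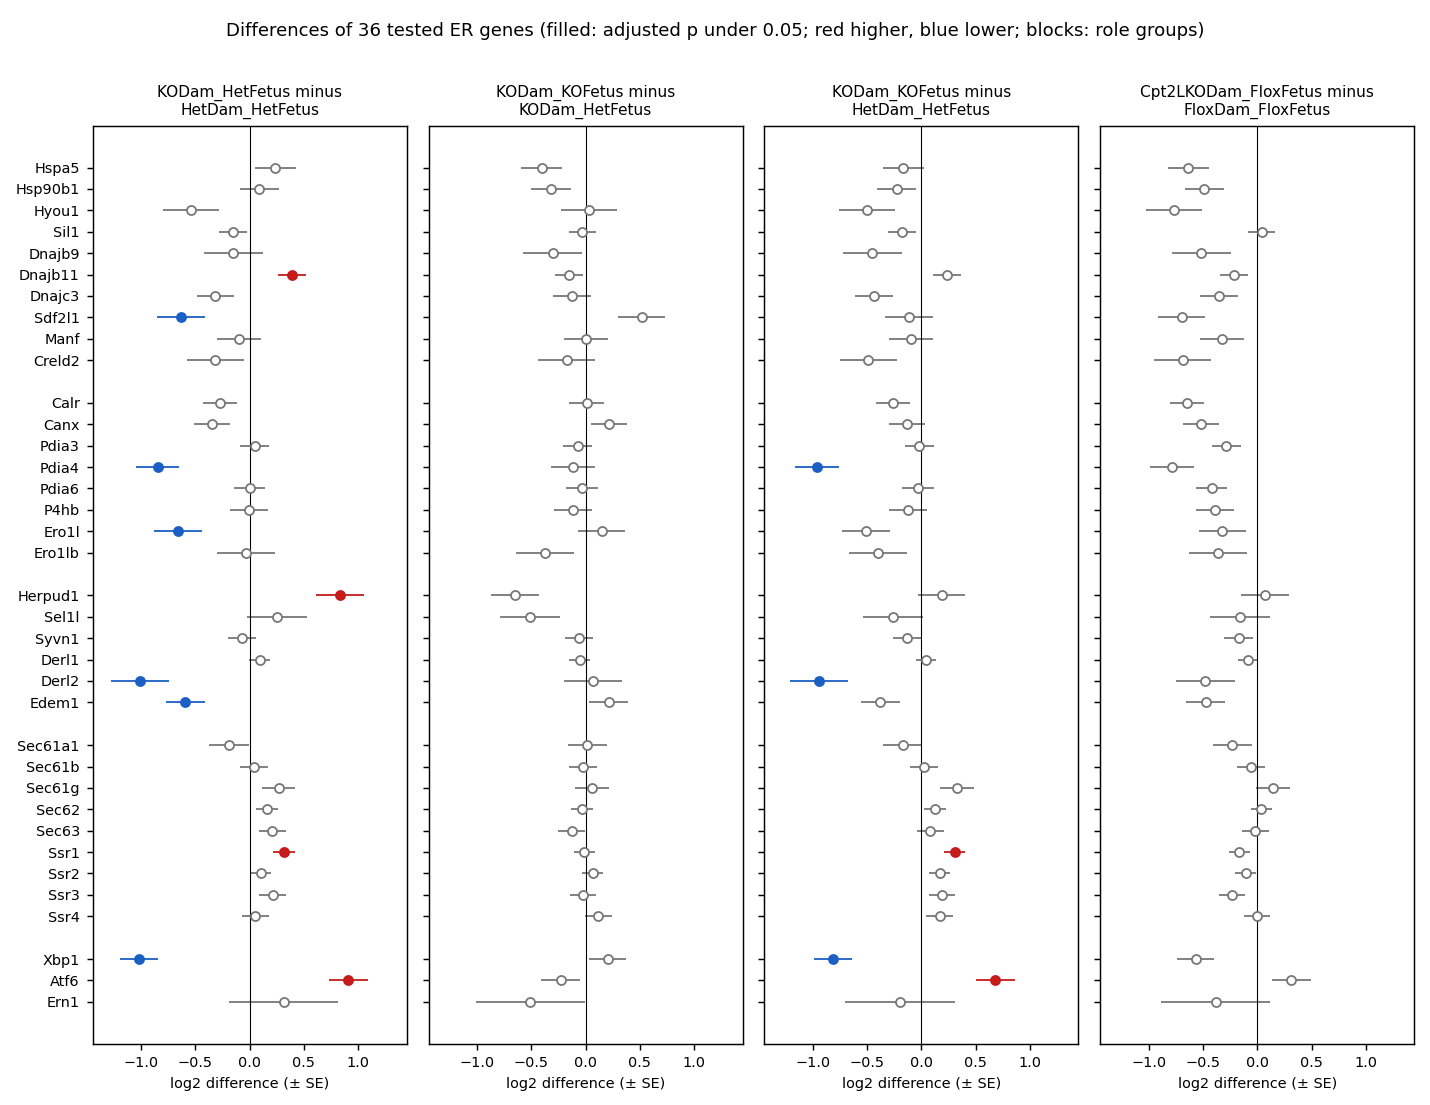
Log2 difference ± SE (x axis) of the 36 tested genes (y axis, in blocks by role) in each of 4 comparisons of 4 libraries against 4; filled points have an adjusted p under 0.05, red higher and blue lower. In the first panel 10 genes are filled (maternal Ppara knockout), none under the fetal knockout, 5 under both and none under the maternal liver Cpt2 knockout, where 31 of 36 points lie left of 0.

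Xbp1 (chr11:5520641-5525993) encodes the transcription factor made after IRE1 splicing. Its log2 values were 5.63, 5.91, 5.99 and 6.38 in HetDam_HetFetus and 4.85, 5.03, 5.03 and 4.92 in KODam_HetFetus. Every library of KODam_HetFetus was below every library of HetDam_HetFetus, and the difference was -1.02 ± 0.17 (SE, adjusted p = 0.00039). Atf6 (chr1:170704457-170868585), which encodes the membrane-bound sensor, read 2.17, 1.83, 2.45 and 2.40 in HetDam_HetFetus and 3.28, 3.32, 2.84 and 3.06 in KODam_HetFetus. Here the 4 libraries from knockout dams were all higher, by 0.91 ± 0.18 (SE, adjusted p = 0.00101). These calls held for both genes under all 16 alternatives tried. Ern1, which encodes IRE1, ranged from -0.63 to 2.41 within HetDam_HetFetus alone, and its difference of 0.31 ± 0.50 had a 95% interval of -0.74 to 1.37, too wide to place it.

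Among the 10 lumenal chaperones and co-chaperones, 1 rose, 1 fell and 8 were not called. Dnajb11 encodes ERdj3, a secreted co-chaperone of BiP, and read 3.88, 3.90, 3.87 and 3.77 in HetDam_HetFetus against 4.22, 4.03, 4.42 and 4.33 in KODam_HetFetus. The groups did not overlap, and the difference was 0.40 ± 0.13 (SE, adjusted p = 0.0219). The call was lost without HetDam_HetFetus replicate 4 (difference 0.37, adjusted p = 0.0537) and without KODam_HetFetus replicate 3 (0.34, 0.0672) or replicate 4 (0.37, 0.0524), and it was also lost with trimmed-mean scaling (0.27, adjusted p = 0.133) and without the libraries carrying a neighbouring tissue (0.37, adjusted p = 0.135). Sdf2l1, a partner of ERdj3 in the BiP complex, read 3.12, 3.47, 3.20 and 3.18 in HetDam_HetFetus against 2.74, 2.64, 2.69 and 2.36 in KODam_HetFetus, with all 4 libraries from knockout dams lower. Its difference was -0.63 ± 0.22 (SE, adjusted p = 0.028). That call ended when HetDam_HetFetus replicate 2 was left out (-0.56, adjusted p = 0.0775), or KODam_HetFetus replicate 4 (-0.55, 0.0778). It was also lost, with a difference no smaller, without KODam_HetFetus replicates 1 and 2 (-0.72, 0.0697) and with litter as a block (-0.65, 0.061).

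Hspa5 (chr2:34772090-34776529), the BiP gene and the usual marker of the response, was not called. It read 7.73, 7.63, 8.11 and 8.21 in HetDam_HetFetus and 8.53, 8.11, 7.93 and 8.05 in KODam_HetFetus. The groups overlapped, with the highest value in KODam_HetFetus replicate 1, and the difference of 0.24 ± 0.19 had a 95% interval of -0.16 to 0.63. Hsp90b1, the ER member of the HSP90 family, read 7.50, 7.23, 7.72 and 7.94 in HetDam_HetFetus and 8.02, 7.72, 7.35 and 7.66 in KODam_HetFetus, a difference of 0.09 ± 0.18 that turned below 0 with trimmed-mean scaling. Creld2, a disulfide isomerase induced in ER stress, differed by -0.32 ± 0.26 with overlapping libraries. The J-domain co-chaperone ERdj4, from Dnajb9, gave -0.15 ± 0.27, and this value lay above 0 without HetDam_HetFetus replicate 4 (0.11). Dnajc3, another J-domain co-chaperone, was called lower with trimmed-mean scaling alone (-0.44, 0.0334). Hyou1, a large relative of HSP70 and nucleotide exchange factor of BiP, had the lowest uncalled difference of the role, -0.54 ± 0.26 (adjusted p = 0.106), with no overlap of the groups, and was called in the fit of only the groups compared (0.0338).

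Of the 8 lectin chaperones and disulfide enzymes, 2 fell, none rose and 6 were not called. Pdia4 (chr6:47796141-47813512), the isomerase ERp72, read 5.41, 5.04, 5.47 and 5.66 in HetDam_HetFetus and 4.60, 4.66, 4.32 and 4.60 in KODam_HetFetus. The highest value from knockout dams was below the lowest from heterozygous dams. Its difference was -0.85 ± 0.20 (SE, adjusted p = 0.0034), and the call held under all 16 alternatives. The oxidase gene Ero1l, which re-oxidises the isomerases, read 3.54, 3.64, 4.14 and 4.72 in HetDam_HetFetus and 3.23, 3.55, 3.12 and 3.51 in KODam_HetFetus. These groups overlapped, HetDam_HetFetus replicate 4 standing highest, and the difference was -0.66 ± 0.22 (SE, adjusted p = 0.0225). Without HetDam_HetFetus replicate 4 it was -0.43 (adjusted p = 0.0932), and the call was also lost without HetDam_HetFetus replicate 3 (-0.62, 0.0536) and without KODam_HetFetus replicate 1 (-0.62, 0.0581) or 3 (-0.58, 0.0627). In all it was lost in 7 of 16 alternatives.

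Calreticulin (Calr) read 7.88, 7.55, 7.69 and 7.98 in HetDam_HetFetus and 7.60, 7.49, 7.43 and 7.49 in KODam_HetFetus. Its difference of -0.27 ± 0.16 was not called (95% interval -0.61 to 0.06), and the groups overlapped. Its membrane-bound relative calnexin (Canx) differed by -0.35 ± 0.17 (adjusted p = 0.103) and was called with trimmed-mean scaling (0.0242) and without HetDam_HetFetus replicate 2 (0.0174). The other isomerases stayed close to 0, with 0.05 ± 0.13 for Pdia3, 0.00 ± 0.14 for Pdia6 and -0.01 ± 0.17 for P4hb, and the values of Pdia3 and Pdia6 lay below 0 with trimmed-mean scaling. The second oxidase, Ero1lb, was near the minimum for testing and read 0.06, -0.46, 0.02 and 0.78 in HetDam_HetFetus against -0.21, -0.22, 0.21 and 0.50 in KODam_HetFetus, with full overlap.

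In ER-associated degradation 1 of 6 tested genes rose and 2 fell. Herpud1 (chr8:94386429-94395371), a membrane scaffold of the HRD1 complex, read 6.28, 6.23, 6.67 and 6.64 in HetDam_HetFetus and 7.73, 7.28, 7.03 and 7.13 in KODam_HetFetus. All libraries from knockout dams were higher, KODam_HetFetus replicate 1 by the most, and the difference was 0.84 ± 0.22 (SE, adjusted p = 0.00647). Without KODam_HetFetus replicates 1 and 2 it was 0.62 and no longer called (0.0898). Derl2 (chr11:71007440-71019841), a derlin of the retrotranslocation complex, read 2.88, 3.49, 3.23 and 3.95 in HetDam_HetFetus and 2.25, 2.25, 2.45 and 2.54 in KODam_HetFetus. The groups were apart, and the difference was -1.01 ± 0.27 (SE, adjusted p = 0.00698), a call lost without the same KODam_HetFetus pair (-0.89, 0.068).

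Edem1, which encodes the lectin that routes misfolded glycoproteins to degradation, read 2.90, 2.74, 3.41 and 3.53 in HetDam_HetFetus and 2.56, 2.56, 2.46 and 2.63 in KODam_HetFetus. Again the groups did not overlap, with a difference of -0.59 ± 0.18 (SE, adjusted p = 0.0147). Leaving out HetDam_HetFetus replicate 4 (-0.46, adjusted p = 0.0574), the libraries carrying a neighbouring tissue (-0.52, 0.075) or the KODam_HetFetus pair (-0.60, 0.0679) ended that call. The core of the ligase was not called, with -0.07 ± 0.13 for Syvn1 and 0.25 ± 0.28 for Sel1l, and neither was Derl1, at 0.09 ± 0.09, a value that lay below 0 with trimmed-mean scaling.

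The differences of the translocon genes ran from -0.19 for Sec61a1 to 0.32 for Ssr1. Of 9 genes, 8 lay above 0, of which Sec61b, Ssr2 and Ssr4 lay below 0 with trimmed-mean scaling, and 1 was called. Ssr1 encodes a subunit of the translocon-associated protein complex and read 3.20, 2.97, 3.28 and 3.31 in HetDam_HetFetus and 3.43, 3.44, 3.52 and 3.66 in KODam_HetFetus. The libraries did not overlap, and the difference was 0.32 ± 0.10 (SE, adjusted p = 0.0162). It was not called without HetDam_HetFetus replicate 2 (0.25, adjusted p = 0.061), without KODam_HetFetus replicate 4 (0.27, 0.0538), with only the groups compared in the fit (0.32, 0.0546) or with trimmed-mean scaling (0.19, 0.114). Sec63, whose product works beside the channel, was called only without HetDam_HetFetus replicate 4 (0.32, 0.0491). The channel subunit gene Sec61a1 read 6.06, 5.75, 6.21 and 6.24 in HetDam_HetFetus and 5.71, 5.63, 6.05 and 6.11 in KODam_HetFetus, and Sec61b 6.48, 6.42, 6.54 and 6.59 in HetDam_HetFetus and 6.64, 6.48, 6.52 and 6.56 in KODam_HetFetus. Both overlapped between groups. Ssr4, from the same complex as Ssr1, differed by 0.05 ± 0.12.

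**Figure D3:**
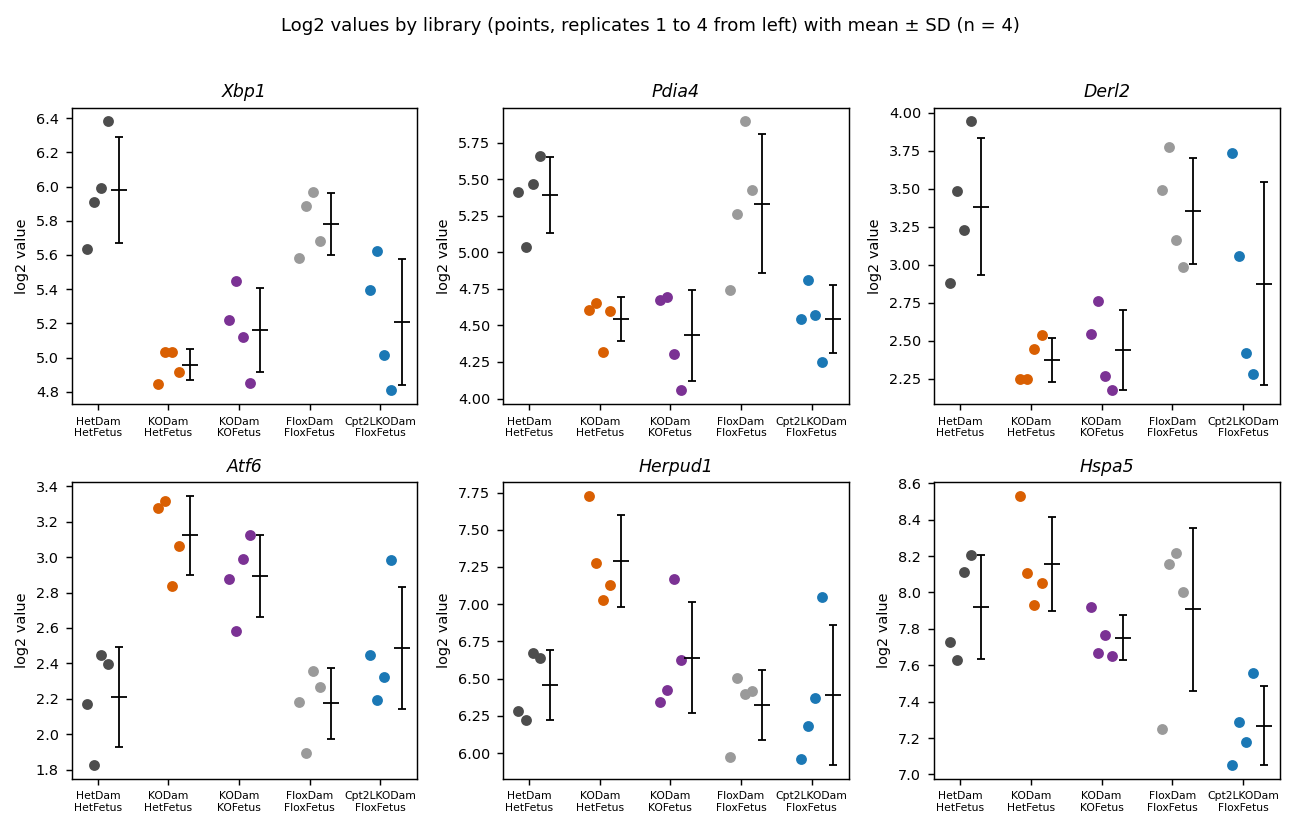
Log2 values (y axis) of Xbp1, Pdia4, Derl2, Atf6, Herpud1 and Hspa5 in each of 4 libraries per group (points, replicates 1 to 4 from the left), with the mean ± SD beside them; y axes differ between genes and do not start at 0. For Xbp1, Pdia4 and Derl2 the 4 KODam_HetFetus libraries lie below all HetDam_HetFetus libraries, and for Atf6 and Herpud1 above them.

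Without KODam_HetFetus replicates 1 and 2, 5 of the 36 genes were called in this comparison (3 higher and 2 lower), and 2842 of all genes in place of 4600. With trimmed-mean scaling, which moved the median of all genes from 0.144 to 0.0178, 2 of the ER genes rose and 8 fell, and the share of rises among all calls went from 67.8% to 49.9%. Markers of other cells moved in the same comparison, in which 26.4% of all genes were higher and 12.6% lower. Of 12 neutrophil and myeloid progenitor markers 9 fell, and their summed linear value went from 5422 to 8242 in HetDam_HetFetus to 3178 to 5325 in KODam_HetFetus, with no marker blank. Of 10 proliferation markers 7 rose, with sums of 337 to 488 and 545 to 880. Of 10 macrophage markers 4 fell and 1 rose, with sums of 518 to 626 and 492 to 590. Of 5 tested cholangiocyte markers 2 fell and all 5 lay below 0, with sums of 19.6 to 40.5 and 7.36 to 22.3. Of 8 tested B lymphoid markers 2 fell and all 8 lay below 0, with sums of 67.1 to 94.4 and 41.4 to 72.9. All 6 tested mast cell and basophil markers lay above 0 and 1 rose, with sums of 10.76 to 13.05 and 14.49 to 17.09. Among 9 tested erythroid markers 2 rose and 3 lay below 0, with sums of 97590.5 to 109856 and 109455 to 117624. Endothelial markers rose in 2 of 8, with sums of 69.8 to 83.1 and 81.5 to 94.1. For megakaryocytes and platelets 1 of 9 tested markers fell, with sums of 233 to 284 and 149 to 297. No stellate or fibroblast marker was called. The hepatocyte sums overlapped (81737 to 140820 and 75375 to 105052), with 2 of 12 markers lower and 1 higher. The 12 acinar markers, of another tissue rich in ER, summed to 65.1 to 121 and 21.4 to 65.7, with 1 to 6 of them blank in a library. The part of these cells in the differences of the ER genes was not tested.

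Beyond these genes, 104 others of the same pathways were listed and 103 tested. Under the maternal Ppara knockout 18 of them rose and 12 fell, against 26.4% higher and 12.6% lower of all genes tested. Their median was 0.03, with 0.14 for all genes. The counts per list that follow, here and in the next paragraph, have the same background. Among 14 other genes of the unfolded protein response, 3 rose and 1 fell. Ppp1r15a, the phosphatase subunit GADD34 that ends the PERK arm, rose by 0.95 ± 0.22 (SE, adjusted p = 0.00253) and Eif2ak3, which encodes PERK, by 0.66 ± 0.21 (0.0173). Atf6b, the paralog of Atf6, differed by -0.62 ± 0.13 (0.00168). Of 22 other genes of ER-associated degradation, 7 rose and 2 fell. They include the ubiquitin-conjugating enzyme gene Ube2j1 at 0.80 ± 0.14 (0.000365), the p97 cofactor gene Nploc4 at 0.71 ± 0.13 (0.000474), and the ligase gene Rnf5 at -0.87 ± 0.15 (0.000419).

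Of 12 oligosaccharyltransferase genes, 1 rose and 3 fell. Its alternative subunits Tusc3 and Magt1 moved apart, with 0.99 ± 0.15 (SE, adjusted p = 0.000173) for Tusc3 and -0.82 ± 0.17 (0.00156) for Magt1, and Ostc differed by -0.52 ± 0.15 (0.00941). Of 24 other folding enzymes 4 rose and 4 fell. The membrane co-chaperone gene Dnajb12 was at 0.75 ± 0.20 (0.00733), the isomerase gene Pdia2 at 0.95 ± 0.28 (0.0122) and the glucosidase gene Mogs at -0.46 ± 0.13 (0.0118). Among 15 ER exit genes 2 rose and 2 fell, including Mcfd2, of the cargo receptor for coagulation factors, at -0.92 ± 0.17 (0.000558) and Sec13, of the COPII coat, at 0.41 ± 0.10 (0.0035). Of 16 genes of signal recognition, translocation and signal peptidase, 1 was called, the Sec61a1 paralog Sec61a2 at 0.71 ± 0.16 (0.00227). How reads shared between such paralogs were counted is not given in the sources used here.

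The fetal Ppara knockout was assessed between KODam_KOFetus and KODam_HetFetus, which share the dam's genotype. No litter code occurs in both groups, so fetal genotype cannot be told apart from dam and litter. Ppara itself was not called between the groups, at -0.30 ± 0.26 (SE, adjusted p = 0.682). The libraries overlapped, so the value of Ppara per gene does not separate the groups. Which part of the gene these values come from was not analysed here. None of the 36 ER genes was called, against 0.822% of 11805 genes, and 3 had an unadjusted p under 0.05, against 10.9% of all genes. These 3 were Herpud1, Sdf2l1 and Hspa5. The median difference was -0.03, with -0.01 for all genes tested, and 23 of 36 lay below 0, against 52.5% of all genes. The groups did not overlap for 1 gene that was higher (Sdf2l1) and 2 that were lower (Hspa5 and Sel1l), against 1.67% and 4.02% of all genes.

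Herpud1 read 6.34, 6.42, 7.17 and 6.62 in KODam_KOFetus, set against the KODam_HetFetus values above, a difference of -0.65 ± 0.22 (SE, unadjusted p = 0.00824, adjusted p = 0.303). Replicate 3 reached into the range of the heterozygous fetuses, and the others were lower. Sdf2l1 read 2.90, 3.45, 2.79 and 3.37 in KODam_KOFetus, above all KODam_HetFetus libraries, with 0.52 ± 0.22 (adjusted p = 0.414). Hspa5 read 7.92, 7.67, 7.77 and 7.65 in KODam_KOFetus, below all KODam_HetFetus libraries by a narrow margin, with -0.40 ± 0.19 (adjusted p = 0.454). For Xbp1 and Atf6 the 95% intervals of the difference were -0.16 to 0.57 and -0.61 to 0.15, and for Pdia4 and Derl2 -0.54 to 0.31 and -0.50 to 0.63. Of the 103 other pathway genes 1 was called, against 0.822% of all genes. Creb3l3, which encodes the ER-anchored liver factor CREB-H, differed by -1.96 ± 0.17 (SE, adjusted p = 6.84e-07).

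Knockout fetuses of knockout dams, KODam_KOFetus, were then set against HetDam_HetFetus. This comparison shares its controls with the maternal one and its other group with the fetal one, so it is no independent test of either. Xbp1, Pdia4 and Derl2 fell and Atf6 and Ssr1 rose. That makes 2 higher and 3 lower of 36, against 24.7% of 11801 genes (17.4% higher and 7.31% lower). The called share was again smaller than that of all genes. The median was -0.13, with 0.14 for all genes tested, and 24 of 36 genes lay below 0, against 37.7% of all genes. The groups did not overlap for 5 genes that were higher and 3 that were lower, against 19.0% and 7.27% of all genes.

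Xbp1 read 5.22, 5.45, 5.12 and 4.85 in KODam_KOFetus, all below HetDam_HetFetus, with a difference of -0.82 ± 0.17 (SE, adjusted p = 0.00329). Pdia4 read 4.67, 4.70, 4.30 and 4.06 in KODam_KOFetus, also without overlap, with -0.96 ± 0.20 (SE, adjusted p = 0.00299). Derl2 read 2.55, 2.76, 2.27 and 2.18 in KODam_KOFetus, with -0.94 ± 0.27 (SE, adjusted p = 0.0172). Its highest value, in replicate 2, was under the lowest of HetDam_HetFetus. This call was lost without HetDam_HetFetus replicate 4 (-0.76, adjusted p = 0.0623), without KODam_KOFetus replicate 4 (-0.86, 0.0551) and, with a larger difference from fewer libraries, without those carrying a neighbouring tissue (-1.02, 0.051). Atf6 read 2.88, 2.58, 2.99 and 3.12 in KODam_KOFetus, all above HetDam_HetFetus, with 0.68 ± 0.18 (SE, adjusted p = 0.0113). Ssr1 read 3.58, 3.38, 3.65 and 3.39 in KODam_KOFetus, with 0.31 ± 0.10 (SE, adjusted p = 0.0292). Its groups did not overlap, yet 8 of 16 alternatives lost the call, among them those without HetDam_HetFetus replicate 1 (0.31, adjusted p = 0.0505) or 2 (0.24, 0.0933) and without KODam_KOFetus replicate 1 (0.28, 0.072) or 3 (0.26, 0.0898).

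The lectin and disulfide genes all lay below 0 here, from -0.96 for Pdia4 to -0.02 for Pdia3, with 1 of 8 called. Ero1l differed by -0.51 ± 0.22 (SE, adjusted p = 0.0904), and it was called without HetDam_HetFetus replicate 1 (0.0386) or without KODam_KOFetus replicate 1 (0.038). Edem1 differed by -0.38 ± 0.18 (SE, adjusted p = 0.126) and was called with trimmed-mean scaling (0.0449). Of the 10 lumenal chaperones 9 lay below 0, none called, though the co-chaperone gene Dnajc3 was called with trimmed-mean scaling (-0.56, 0.0182) and without HetDam_HetFetus replicate 2 (-0.55, 0.0419), and 8 of 9 translocon genes above 0, of which Sec61b and Sec63 lay below 0 with trimmed-mean scaling. Without the libraries carrying a neighbouring tissue, 3 of the 36 genes were called (1 higher and 2 lower), and 1757 of all genes in place of 2916. Of 12 neutrophil markers 6 fell and of 10 proliferation markers 6 rose. The neutrophil sums of KODam_KOFetus, 3812 to 6560, overlapped with HetDam_HetFetus and the proliferation sums, 558 to 849, did not. Their part in these differences was not tested.

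Among the 103 other pathway genes 13 rose and 8 fell when both dam and fetus were knockout, against 17.4% higher and 7.31% lower of all genes. Creb3l3 differed by -1.59 ± 0.17 (SE, adjusted p = 1.4e-05). Mcfd2 and Lman1, the 2 subunits of the cargo receptor, were at -0.69 ± 0.17 (0.00682) and -0.75 ± 0.19 (0.00941). Tusc3 was at 0.98 ± 0.15 (0.000315) and Magt1 at -0.67 ± 0.17 (0.00976). In ER-associated degradation 6 of 22 rose and 1 fell, including the conjugating enzyme gene Ube2g2 at 0.49 ± 0.10 (0.00228). Erp44, which retains unassembled proteins, differed by -0.44 ± 0.11 (0.0103). Mbtps2, the protease that makes the second cut in ATF6, was at 0.63 ± 0.17 (0.0134).

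The maternal liver Cpt2 knockout was assessed by setting Cpt2LKODam_FloxFetus against FloxDam_FloxFetus, whose fetuses share the label Cpt2f/f. No ER gene was called, and neither was any of 11805 genes, a background of 0%. At an unadjusted p under 0.05 there were 13 ER genes, all lower, where 11.1% of all genes reached it and 5.57% did so in that direction. Of the 36 genes 31 (86.1%) lay below 0, against 51.1% of all genes, and their median was -0.33, with -0.01 for all genes tested. These genes vary together across libraries, so the counts are a description and not a test. Chaperones and isomerases had the lowest values, and the translocon lay near 0.

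Calr (chr8:84842088-84846931) had the smallest p of these genes. It read 7.27, 7.57, 8.38 and 7.86 in FloxDam_FloxFetus and 7.10, 7.12, 7.15 and 7.11 in Cpt2LKODam_FloxFetus. The 4 libraries from deleted dams were close to each other and below all controls, which were themselves spread more widely. Its difference was -0.65 ± 0.16 (SE, unadjusted p = 0.000639, adjusted p = 0.321), with adjusted values of 0.114 to 0.87 over the 16 alternatives. Canx also did not overlap, reading 5.22, 5.36, 5.72 and 5.76 in FloxDam_FloxFetus and 4.98, 5.07, 5.10 and 4.84 in Cpt2LKODam_FloxFetus, a difference of -0.52 ± 0.17 (adjusted p = 0.363). Pdia4 read 4.74, 5.26, 5.90 and 5.43 in FloxDam_FloxFetus and 4.55, 4.81, 4.57 and 4.25 in Cpt2LKODam_FloxFetus. FloxDam_FloxFetus replicate 1 lay within the range of the other group, and the difference was -0.79 ± 0.20 (adjusted p = 0.346).

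Hspa5 read 7.25, 8.16, 8.22 and 8.004 in FloxDam_FloxFetus and 7.05, 7.29, 7.18 and 7.56 in Cpt2LKODam_FloxFetus. Control replicate 1 was low and lay inside the other group, and the remaining controls were above it. The difference was -0.64 ± 0.19 (adjusted p = 0.346). Hsp90b1 read 7.11, 7.74, 7.78 and 7.62 in FloxDam_FloxFetus and 7.20, 6.90, 6.84 and 7.35 in Cpt2LKODam_FloxFetus, with -0.49 ± 0.18 (adjusted p = 0.377). Here too control replicate 1 was the lowest of its group. Sdf2l1 read 3.26, 4.16, 3.79 and 3.12 in FloxDam_FloxFetus and 2.95, 3.40, 2.63 and 2.56 in Cpt2LKODam_FloxFetus, and Creld2 3.77, 5.17, 4.60 and 3.73 in FloxDam_FloxFetus and 3.74, 4.05, 3.24 and 3.48 in Cpt2LKODam_FloxFetus. In both genes control replicate 2 was the highest, and the groups overlapped. Their differences were -0.70 ± 0.22 and -0.69 ± 0.26. Hyou1 differed by -0.77 ± 0.26, Dnajb9 by -0.52 ± 0.27 and Sil1, a nucleotide exchange factor of BiP, by 0.04 ± 0.13.

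Xbp1 read 5.58, 5.89, 5.97 and 5.68 in FloxDam_FloxFetus and 5.39, 5.63, 5.01 and 4.81 in Cpt2LKODam_FloxFetus, a difference of -0.57 ± 0.17 (adjusted p = 0.35) with 1 library of the second group inside the control range. Atf6 read 2.18, 1.90, 2.36 and 2.27 in FloxDam_FloxFetus and 2.45, 2.20, 2.32 and 2.98 in Cpt2LKODam_FloxFetus, a difference of 0.31 ± 0.18 in which replicate 4 of the second group stood highest. Of the 8 lectin and disulfide genes all 8 lay below 0, with a median of -0.41, and 6 had an unadjusted p under 0.05. Of the 10 lumenal chaperones 9 lay below 0 and 5 had such a p. In ER-associated degradation Derl2 and Edem1 differed by -0.48 ± 0.27 and -0.48 ± 0.18 and Herpud1 by 0.07 ± 0.22, whose values of 5.98, 6.51, 6.39 and 6.42 in FloxDam_FloxFetus and 5.96, 6.18, 6.37 and 7.05 in Cpt2LKODam_FloxFetus overlapped fully. The translocon median was -0.06, from -0.24 for Ssr3 to 0.15 for Sec61g.

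Ssr1 was the only translocon gene without overlap, and 3 of the 36 genes had that pattern, all lower, against 2.85% of all genes. Leaving out FloxDam_FloxFetus replicate 3, which had the highest Calr and Pdia4 of its group, left 9 genes with an unadjusted p under 0.05 and a median of -0.20, and leaving out Cpt2LKODam_FloxFetus replicate 3 also left 9. Over the 16 alternatives, 29 to 32 genes lay below 0 and 9 to 17 had such a p. Cpt2LKODam_FloxFetus replicate 2 carried pancreas by its endocrine markers, which summed to 41.2. Its acinar sum, which did not meet the rule, was 789, where the other libraries of its group had 47.8 to 104. It had the highest Sdf2l1, Creld2, Pdia4 and Xbp1 of that group. It was not the highest for Hspa5, Hsp90b1 or Pdia6, and it was the lowest for Pdia3 (6.42). Without the libraries carrying a neighbouring tissue 16 genes had such a p and 30 lay below 0. The hepatocyte sums were 82317 to 87615, inside the 73396 to 113990 of the controls. Among the 103 other pathway genes none was called, 72 lay below 0, and 12 had an unadjusted p under 0.05 and were lower, with 2 higher. Of all genes 51.1% lay below 0, and 5.57% had such a p and were lower. On simulated data the fit recovered 26% of log2 changes of 0.5 and 66% of those of 1 in this comparison. Those data held added changes and gave 151 calls, where the real comparison had 0. With fewer calls an adjusted p under 0.05 needs a smaller unadjusted p, so these rates do not carry over to it.

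**Figure D4:**
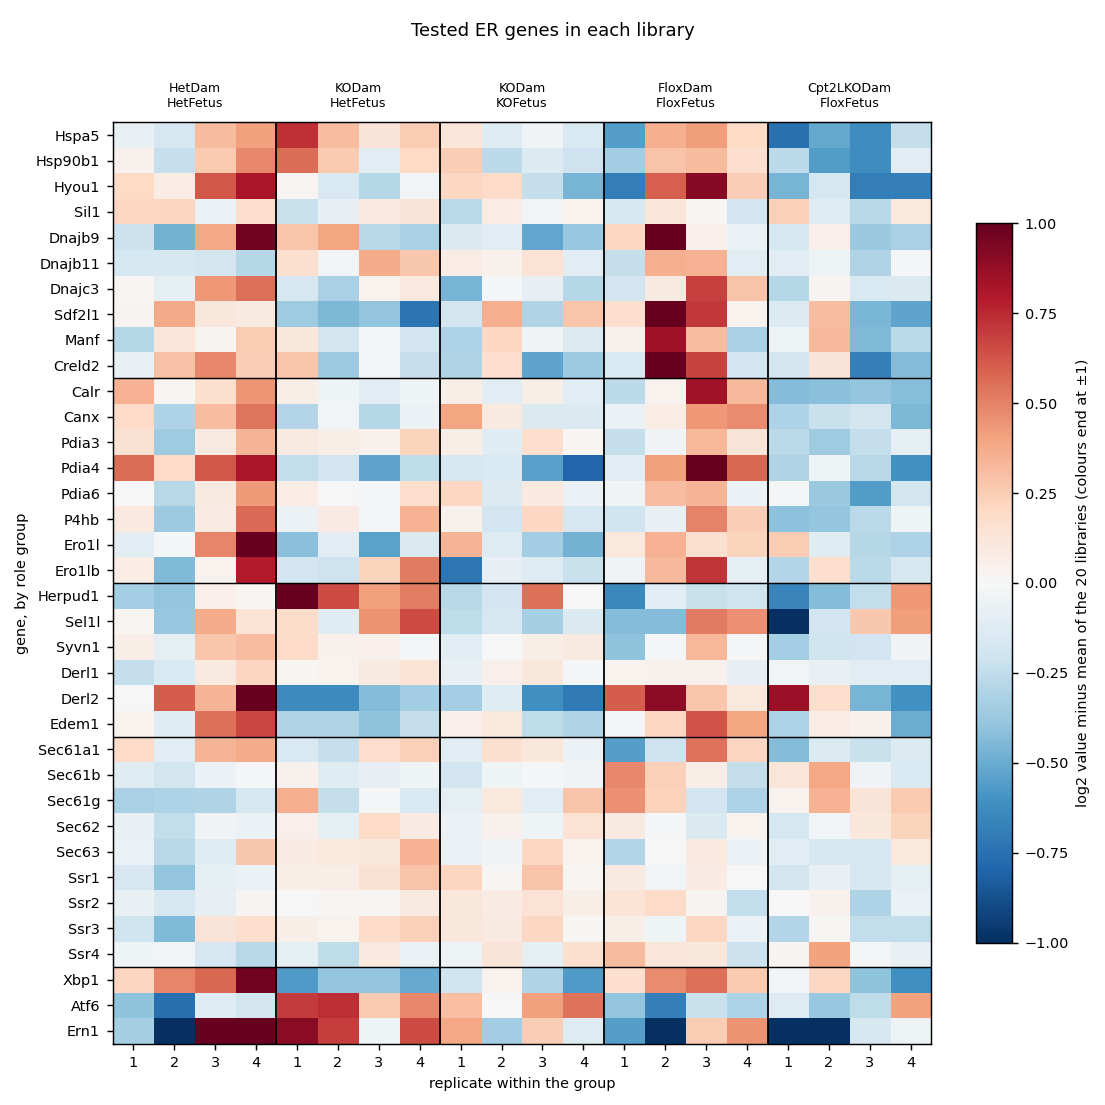
Log2 value of each of the 36 tested genes (rows, in blocks by role) minus its mean over the 20 libraries, by group and replicate (columns); red is above the mean of the gene, blue below, and colours end at 1 in either direction. The chaperone and isomerase rows are mostly blue in Cpt2LKODam_FloxFetus, and the Xbp1, Pdia4 and Derl2 rows are blue in KODam_HetFetus and mostly blue in KODam_KOFetus.

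Whether the maternal knockouts differed from each other was tested directly, as the Ppara effect minus the Cpt2 effect, in libraries that neither effect shares with the other. No ER gene was called, and none of 11798 genes, a background of 0%. Without Cpt2LKODam_FloxFetus replicate 4 alone, 421 of all genes were called (343 higher and 78 lower) and still no ER gene. An unadjusted p under 0.05 was found for 7 of the 36, all with the Ppara effect higher, against 19.9% of all genes (15.5% in that direction). Hspa5 differed by 0.88 ± 0.27 (SE, adjusted p = 0.135), since its Ppara effect was 0.24 and its Cpt2 effect -0.64. Dnajb11 differed by 0.61 ± 0.18 (0.131) and Ssr1 by 0.49 ± 0.14 (0.129). For Pdia4, lower in both arms, the difference was -0.06 ± 0.29 with a 95% interval of -0.66 to 0.54. That of Xbp1 was -0.45 ± 0.25 (-0.97 to 0.07) and that of Calr 0.37 ± 0.23 (-0.10 to 0.85). The median over the 36 genes was 0.23, with 0.15 for all genes, and 6 of 36 lay below 0, against 36.5% of all genes. With trimmed-mean scaling 8 of the ER genes changed sign. Then 14 of 36 lay below 0, with a median of 0.09, against 5791 of 11798 genes, with a median of 0.009.

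Over the 36 genes the effects of the maternal knockouts correlated with r = 0.694, where all tested genes gave 0.56. These are correlations across genes, which share their libraries and are not independent. In 17 genes both values were below 0, in 14 the Ppara value was above and the Cpt2 value below, in 4 both were above, and in 1 the reverse held. Atf6 and Herpud1 were in the upper right, and Pdia4, Xbp1 and Derl2 in the lower left.

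**Figure D5:**
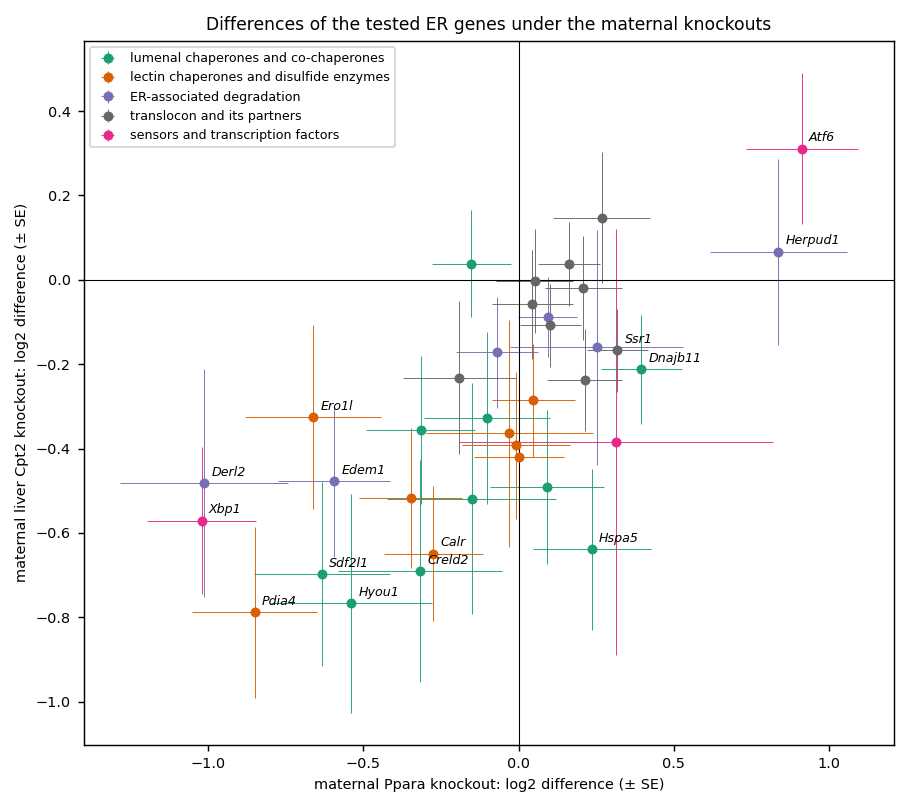
Log2 difference ± SE of each of the 36 tested genes under the maternal Ppara knockout (x axis) and the maternal liver Cpt2 knockout (y axis), coloured by role. Most points lie below the horizontal line at 0, and 17 of 36 lie below 0 on both axes.

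The control groups of both arms, HetDam_HetFetus and FloxDam_FloxFetus, differ in genotype and were compared to see how far the ER genes vary without a maternal knockout. None of the 36 was called, against 0.136% of 11800 genes, and 3 had an unadjusted p under 0.05, all lower in HetDam_HetFetus, against 16.5% of all genes (15.8% in that direction). These were Dnajb11, Sec61g and Ssr1, at -0.29 ± 0.13, -0.33 ± 0.16 and -0.21 ± 0.10. Dnajb11 and Ssr1 are among the genes that rose from HetDam_HetFetus to KODam_HetFetus. Dnajb11 read 3.81, 4.41, 4.40 and 3.95 in FloxDam_FloxFetus, and Ssr1 read 3.46, 3.34, 3.45 and 3.37 in FloxDam_FloxFetus. Those Ssr1 values overlap with KODam_HetFetus and lie above HetDam_HetFetus. For Xbp1, Atf6 and Pdia4 the difference between the controls was 0.20 ± 0.17, 0.04 ± 0.18 and 0.06 ± 0.20. The median over the 36 genes was -0.006, with -0.15 for all genes, and 18 of 36 lay below 0, against 8603 of 11800. The ER median thus lay above that of all genes in HetDam_HetFetus without a maternal knockout. In the maternal Ppara comparison, where HetDam_HetFetus is the control, it lay below (-0.003, with 0.14 for all genes).

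Within groups the genes varied together to different degrees. After each value was set relative to its group mean, the 8 lectin and disulfide genes had a median correlation of 0.56 over their 28 pairs across the 20 libraries. It was 0.42 for the lumenal chaperones, 0.33 for ER-associated degradation and 0.18 for the translocon. Over all 630 pairs the median was 0.29. Hspa5 was followed most closely by Hsp90b1 (r = 0.864), Syvn1 (0.83) and Hyou1 (0.767). Ssr4, at -0.49, was at the other end. Xbp1 correlated with Hspa5 at 0.22 and with Derl2 at 0.72. Libraries share their normalization and the mixture of cells in the sample, so these values describe the libraries and no more.

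The genes with an element in the promoter were compared with those without. Of 11 tested genes with an ERSE or ERSE-II match, 2 rose under the maternal Ppara knockout and 0 fell. Both are the ERSE-II genes, Dnajb11 and Herpud1. Of 18 tested genes with a promoter and no match, 1 rose and 6 fell. Of all genes tested, 26.4% were higher and 12.6% lower, so counts in sets this small set no contrast. The medians were -0.03 and 0.05, and 6 of 11 genes with a match and 8 of 18 without lay below 0. No tested gene with an ERSE was called. Under the maternal Cpt2 knockout 10 of 11 genes with a match lay below 0, with a median of -0.42, and 16 of 18 without, with a median of -0.31. In the difference of the maternal effects 0 of 11 with a match lay below 0, with a median of 0.37, and 5 of 18 without, with a median of 0.12, although Dnajc3 and Syvn1 of the first set lay below 0 with trimmed-mean scaling. The promoters of Herpud1, which rose, and of Pdia4 and Xbp1, which fell, are printed as examples picked by their calls in these data. Each is given as the 200 bases before the gene start, 5′ to 3′ on the strand of the gene. In GRCm38.p6 the windows are chr8:94386229-94386428 on the + strand, chr6:47813513-47813712 on the - strand and chr11:5520441-5520640 on the + strand. Capitals mark the ERSE-II of Herpud1, and the others hold no match. That these letters are absent from a window says nothing about the binding of a factor.
Herpud1: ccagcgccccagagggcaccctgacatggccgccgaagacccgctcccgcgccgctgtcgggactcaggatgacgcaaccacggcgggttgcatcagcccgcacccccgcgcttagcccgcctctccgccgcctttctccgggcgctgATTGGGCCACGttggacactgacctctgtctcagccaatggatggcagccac
Pdia4: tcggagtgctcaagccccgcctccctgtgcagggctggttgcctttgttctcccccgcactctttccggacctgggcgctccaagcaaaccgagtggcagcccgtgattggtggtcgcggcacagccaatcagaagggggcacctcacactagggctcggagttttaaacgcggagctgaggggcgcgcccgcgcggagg
Xbp1: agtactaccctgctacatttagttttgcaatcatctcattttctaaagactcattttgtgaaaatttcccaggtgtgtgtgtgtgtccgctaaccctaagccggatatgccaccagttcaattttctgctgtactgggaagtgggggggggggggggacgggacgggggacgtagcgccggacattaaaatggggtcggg

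Derl3, a derlin of secretory cells, reached a linear value of 1 in 2 of 20 libraries and was not tested. Its log2 values were -1.35, -1.20, -1.30 and -2.20 in HetDam_HetFetus, 1.60, -0.73, -0.79 and -0.47 in KODam_HetFetus and -2.45, -0.38, -2.16 and -0.70 in KODam_KOFetus. In the Cpt2 arm they were -3.51, 0.29, -0.73 and -1.14 in FloxDam_FloxFetus and -3.46, -1.25, -2.90 and -0.97 in Cpt2LKODam_FloxFetus. The 4 KODam_HetFetus values were above all those of HetDam_HetFetus, and the highest value of all was in KODam_HetFetus replicate 1. The range within KODam_HetFetus exceeded the gap between the groups.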

How the data were processed

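Gene expression was measured by RNA sequencing in 20 fetal livers, 4 in each of 5 groups, grouped by the genotype labels. Stranded mRNA libraries from Trizol-extracted RNA were read as 75 nt single reads, per the labels' protocols. The tools bcl2fastq (2.17.1.14) and Partek (7.0) and the build GRCm38.p6 are named per the submitters' processing notes. The aligner, annotation and counting rule remain not given in the sources used here. The authors deposited log2 values of a quantity the sources do not name. All libraries have the same quantiles (largest difference 0.001), a pattern that quantile normalization gives and that can hide a shift common to most genes. The base is read as 2, since 2 to the value times exon length summed to 1.14e+06 to 1.41e+06 per library. Blanks were read as missing, and 23334 to 26255 genes had a value per library. Depth is unknown, and no count test was run.

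Genes with a linear value of at least 1 in 4 libraries (11807) entered one fit of all 20 libraries with a mean per group (limma 3.58.1, R 4.3.3, eBayes with trend). Tests were two-sided, with Benjamini-Hochberg adjustment over all genes of a comparison and calls at an adjusted p under 0.05. Comparisons numbered 6. Alternatives were log2 of the linear value plus 1, no filter, trimmed-mean scaling, litter as a random block, a replicate block, only the groups compared, and fits without doubted libraries or each replicate. Same-numbered libraries of the control groups deviated together (r = 0.127 to 0.323, 3 of 4 best with their own number), a hint of pairing from the data that no label states. Litters were read from codes in the descriptions that no label explains. Members, lists and alternatives were all chosen with earlier results of these data known. Library values are given for the 6 called genes with the smallest p per comparison. They are also given, for some genes in some groups only, for a panel of 15 genes, except Dnajb9 and Ssr4. Others are given by counts, ranges and the extremes of a role. Up to 3 called genes per other list are named. Tested on simulated data of 11634 genes, the fit recovered 18%, 74%, 92% and 100% of log2 changes of 0.5, 1, 2 and 4 for the maternal Ppara knockout, with 6 false among 148 calls. Noise was drawn independently for each gene, and the real comparison had 4600 calls. The rates therefore check the fit and do not carry over to the real comparisons. Motifs were searched as exact letters in RefSeq promoters. Of the member names, 35 matched a RefSeq symbol and 2 an older name (Ero1l and Ero1lb).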

Additional observations from a re-analysis of the deposited data

Results flagged for a closer look

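Among 18 genes and 90 groups of 4 libraries examined for a single library far from the rest, 3 groups stood out, where chance gives about 1 in 20. Derl3 in HetDam_HetFetus replicate 4 was -2.20, and the nearest of the other 3 libraries was -1.35. The same gene in KODam_HetFetus replicate 1 was 1.60, and the nearest was -0.47. Both values are of a gene below the minimum for testing. Sec61b in KODam_KOFetus replicate 1 was 6.41, and the nearest was 6.56, a gap that is wide only beside the narrow range of the other 3 libraries.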

How the results depend on the processing

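Counts of called ER genes under the alternatives were as follows. Under the maternal Ppara knockout, where 10 were called, the count was 5 without KODam_HetFetus replicates 1 and 2, and 7 to 10 under the others, with 7 to 10 when each replicate was left out. Under both knockouts, where 5 were called, it was 3 without the libraries carrying a neighbouring tissue, and 4 to 6 under the others, with 4 to 5 when each replicate was left out. In the other 4 comparisons it was 0 under every alternative tried, replicates left out included. For single genes, 36 calls were lost and 11 gained over the 36 ER genes, all comparisons and alternatives, none with a called value changing sign. The cause was not tested. The median difference of the ER genes under the maternal Ppara knockout ranged from -0.13 to 0.12, and it was 0.12 without HetDam_HetFetus replicate 4 and -0.12 without replicate 2.

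With the replicate block, the replicate number of the titles as a term, 10 genes were called under the maternal Ppara knockout and 6 under both knockouts, and 0 elsewhere. In 4 comparisons the numbers do not pair the libraries: deviations of same-numbered libraries correlated at -0.23 to -0.08 for the maternal and -0.38 to 0.17 for the fetal Ppara knockout, -0.21 to 0.27 for both and -0.02 to 0.21 for the Cpt2 knockout. Between the control groups, where every pair correlated above 0.1, the block left 0 ER genes and 15 of all genes called, in place of 0 and 16. With litter as a block, littermates by code correlated at 0.566.

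Counts over all genes moved by more than 1.5 times in few settings. For the maternal Ppara knockout 4600 became 2842 without KODam_HetFetus replicates 1 and 2. For both knockouts 2916 became 1757 without the libraries carrying a neighbouring tissue and 1827 without KODam_KOFetus replicate 4. For the fetal knockout 97 became 63 with only the groups compared and 147 without KODam_KOFetus replicate 3. For the control groups 16 became 8 with litter as a block and 8 to 35 with a replicate left out. The Cpt2 count of 0 became 1 without FloxDam_FloxFetus replicate 1 or Cpt2LKODam_FloxFetus replicate 4, and the difference of the maternal effects, also 0, became 421 without Cpt2LKODam_FloxFetus replicate 4 and at most 2 otherwise. Depth is unknown, and the precision of low values such as those of Ero1lb, Ern1 and Derl3 cannot be stated.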
